A study of Mus musculus with 12 samples.

Results

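The 42 genes described here are antiviral interferon-stimulated genes, the genes that cells switch on when type I interferon warns them of a virus. They were taken by gene symbol from the 55216 gene symbols of the count table. The cells were Myc-CaP, an established mouse prostate cancer line that overexpresses Myc, and RNA was sequenced 48 h after treatment. The 12 libraries form 6 groups of 2 by sample title: untreated cells (Ctrl), interferon gamma (IFNγ) at 200 pg (IFN200) or 2000 pg (IFN2000), oxaliplatin at 2 μM (Oxali), and oxaliplatin with either IFNγ dose (Combo200, Combo2000). The labels give the IFNγ dose in pg with no volume, and the paper states the IFNγ doses of its RNA sequencing of these cells per mL. Oxaliplatin is a platinum drug that crosslinks DNA. All groups share the one line, so each value describes that line alone, and nothing in the labels says that the libraries of a group came from separate cultures. The p-values therefore measure the spread between these libraries, which may be technical.

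For the 6 libraries of single treatments, another label (the agent) names a different treatment than the title. By agent, the pair titled Oxali would be IFNγ 2000 pg, the pair titled IFNγ 2000 pg would be IFNγ 200 pg, and the pair titled IFNγ 200 pg would be Oxali. The mean log2 ratio of p53 target genes to Ctrl, genes that DNA damage is known to induce, was 0.44 to 0.52 in the 6 libraries titled with Oxali and −0.02 to 0.04 in the 4 with IFNγ alone, so titles were used. This ratio separates libraries with the drug from those without it, and does not tell the IFNγ doses apart. The doses named here rest on the titles alone. Library totals were 18749975 to 25931516 counts. The IFN2000 libraries stood apart in transcript length: over 13043 genes the Spearman correlation of the log2 ratio to Ctrl with length was −0.35 and −0.19 there and −0.02 to 0.15 in the other 10. IFN2000 replicate 2 also held 242 counts of T cell markers (8 of 9 with counts, Cd8a at 0; 10.4 CPM summed, against 0.177 to 1.85 in the other 11 libraries), and IFN200 replicate 1 held 180 counts of 8 heart muscle genes, none at 0. The epithelial marker Epcam was at 0 in all 12 libraries and Krt18 and Cdh1 had at most 6 counts, whereas Krt8 and Hoxb13 had 353 counts or more in each. Whether these differences had a part in the results was not tested; calls lost without IFN2000 replicate 2 are named beside their results.

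Type I interferons are secreted by cells that sense viral nucleic acid and bind the receptor made of Ifnar1 and Ifnar2. Receptor-bound kinases then activate STAT proteins, which join IRF9 to form ISGF3, a complex that binds the interferon-stimulated response element (ISRE) in the promoters of antiviral genes. IFNγ uses another receptor, and acts on promoters that hold the gamma-activated site (GAS). It also induces IRF1, which can bind ISRE-like sequences. The question here is whether genes typical of type I interferon were raised by the drug alone, in cells where Ifnb1 had no counts, and by IFNγ.

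The RefSeq promoter table (GRCm38.p6, 250 bases before to 50 bases after the start of transcription) held 35 of the 42 genes. An ISRE core, GAAANNGAAA on either strand, lay in 13 of the 35 (37.1%), against 3.99% of the 27025 genes in the table and 3.44% of its 32851 promoters. A GAS core, TTCNNNGAA, lay in 9 (25.7%), against 9.55% of genes and 8.3% of promoters, and an NF-κB core, GGGNNTTTCC, in 0, against 1.89% of genes and 1.63% of promoters. The motifs were searched on both strands, and matches of one motif could overlap each other or another motif. The 13 promoters held 23 ISRE cores, of which 20 lay before the start, at distances of 12 to 188 bases, and 9 of the 13 held 2 or more. A match is a description of the letters, not evidence of binding.

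The 250 bases before the start are printed for 5 genes to show how the cores are placed. These genes hold an ISRE core and were taken by largest change in Oxali, under the rule given with the processing. The bases run 5′ to 3′ along the gene's own strand, with ISRE cores in capitals. In Ddx60 (chr8:61927837-61928086, plus strand) the cores start 53 and 19 bases before the start of transcription, and in Oas3 (chr5:120777660-120777909, minus strand) 75 bases before it. In Ifit1 (chr19:34640639-34640888, plus strand) they lie 104 and 85 bases before, in Ifit3 (chr19:34583279-34583528, plus strand) 156 and 122 bases before, and in Bst2 (chr8:71537473-71537722, minus strand) at 130 and 124 bases, where they overlap.
Ddx60: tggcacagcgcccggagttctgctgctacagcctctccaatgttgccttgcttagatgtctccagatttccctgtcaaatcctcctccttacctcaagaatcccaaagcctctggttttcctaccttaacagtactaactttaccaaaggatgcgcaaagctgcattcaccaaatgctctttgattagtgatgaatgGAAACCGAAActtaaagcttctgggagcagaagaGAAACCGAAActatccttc
Oas3: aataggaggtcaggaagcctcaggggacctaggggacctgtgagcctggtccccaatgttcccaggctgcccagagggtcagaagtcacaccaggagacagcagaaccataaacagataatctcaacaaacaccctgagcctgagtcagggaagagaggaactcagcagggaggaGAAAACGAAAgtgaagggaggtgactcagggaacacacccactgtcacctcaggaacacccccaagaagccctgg
Ifit1: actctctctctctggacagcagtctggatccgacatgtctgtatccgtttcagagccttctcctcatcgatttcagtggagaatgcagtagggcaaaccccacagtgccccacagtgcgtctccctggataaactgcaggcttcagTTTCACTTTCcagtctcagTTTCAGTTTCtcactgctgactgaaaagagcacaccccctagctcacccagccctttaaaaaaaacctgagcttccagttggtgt
Ifit3: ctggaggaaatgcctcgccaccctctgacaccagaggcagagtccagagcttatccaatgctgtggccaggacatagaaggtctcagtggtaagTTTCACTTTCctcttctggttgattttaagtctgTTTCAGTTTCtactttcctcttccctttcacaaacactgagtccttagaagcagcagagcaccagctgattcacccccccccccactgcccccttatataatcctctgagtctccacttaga
Bst2: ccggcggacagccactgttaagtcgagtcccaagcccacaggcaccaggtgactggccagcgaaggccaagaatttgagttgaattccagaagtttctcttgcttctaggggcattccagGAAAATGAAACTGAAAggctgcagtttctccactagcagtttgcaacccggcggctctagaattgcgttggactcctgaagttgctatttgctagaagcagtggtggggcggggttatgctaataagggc

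By response, the ISRE core was in 6 of the 18 genes with a promoter that were higher in Oxali and in 7 of the 17 others, and in 4 of the 12 that were higher in IFN2000 and in 9 of the 23 others. The GAS core was in 4 of 18 and 5 of 17, and in 4 of 12 and 5 of 23. The others include genes that did not pass the filter and were not tested, among them Oas1g, which holds an ISRE core. Samhd1 and Herc6, which rose in Oxali but not in IFN2000, hold no ISRE core in this window, which says only that these letters are not in it.

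In untreated cells the antiviral genes ranged from moderately abundant to undetected. Per length of exon, the highest level in Ctrl was that of Bst2 (73.9 ± 1.92 FPKM, SD, n = 2), followed by Ifitm2 (63.7 ± 3.92), Isg20 (53.5 ± 5.55) and Samhd1 (46.1 ± 2.58). Bst2 lay above Ifitm2, Ifitm2 above Isg20 and Isg20 above Samhd1 by more than either SD of the pair. With the longest transcript as the length Samhd1 came first at 107 FPKM, so the order depends on the length used. In Oxali, Samhd1 led at 117.0 ± 0.141 FPKM (SD, n = 2), and in Combo2000 Bst2 led at 205.0 ± 2.19. At the other end, Cmpk2 had no count in any library. The number of the 42 genes with any count was 31 to 32 per Ctrl library, 34 to 36 in IFN200, 38 in both IFN2000 libraries, 37 to 39 in Oxali, 39 in Combo200 and 40 in Combo2000. A count of 0 allows up to 3 counts, which is 0.111 to 0.167 CPM, the count as a share of the scaled library, and covers counting error only, because reads are not independent molecules.

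Of the 42 genes, 34 passed the low-count filter and were tested across the whole table of 13177 genes with edgeR's quasi-likelihood test. Of the 34, 22 lay above the filter's cutoff of 0.436 CPM in both Ctrl libraries. A further 7 (Ifit1, Ifit3b, Oas1a, Oas2, Rsad2, Rtp4 and Ddx60) passed only through the combination groups, so their rise in the combinations had to appear and counts over the 34 are descriptions. Oas1b, Oas3 and Xaf1 lay under the cutoff in both Ctrl libraries and passed only through treated libraries. Counts over the 27 genes left without the 7 are therefore descriptions as well. Calls were made at an adjusted p (Benjamini-Hochberg) under 0.05. In RNA from whole cultures, a change in the number of expressing cells and a change in RNA per cell cannot be told apart.

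Oxali without any added interferon raised a broad part of the set. Against Ctrl, 21 of the 34 genes were higher, where 34.8% of all genes tested were higher. edgeR called 0 lower, where 32.8% of all genes were lower, with 1 lower at an unadjusted p under 0.05 and 0 lower by DESeq2, which called 20 higher. Without the 7 genes that passed the filter only through the combinations, 18 of 27 were higher. The 27 still hold Oas1b, Oas3 and Xaf1, which passed only through treated libraries. The median log2 fold change was 1.06, or 0.92 with genes at or near 0 in Ctrl set to their lower bound, against 0.02 over all genes. Of the 21 calls, those of Rtp4 and Ddx60 rest on 2 and 4 counts per library against 0 and 0. Summed over the set, CPM went from 1209 and 1118 in Ctrl to 1869 and 1911 in Oxali. Most of the rise in that sum was Samhd1: without it the values were 771.1 and 713.6 in Ctrl and 799.7 and 840.1 in Oxali.

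Summed markers of other cell types also differed between the 6 libraries with Oxali and the 6 without. The 6 myeloid markers summed to 16.4 to 18.9 CPM with Oxali and 12.5 to 15.6 without, mostly Cd14; Adgre1 and Itgam were at 0 in all 12 libraries, and Csf1r had 8 to 19 counts with Oxali and 0 without. The 5 fibroblast markers summed to 20.9 to 25.6 CPM and 9.95 to 17.4, nearly all Pdgfra, with Col1a2 and Col3a1 at 0 in every library with Oxali and Dcn at most 1. The 8 heart muscle genes had 71 to 129 counts with Oxali, mostly Tnnt2, and 15 to 26 without it outside IFN200 replicate 1. T cell markers summed to 1.24 to 1.85 CPM with Oxali, mostly Lck, and 0.177 to 0.564 without it outside IFN2000 replicate 2; Cd8a was at 0 in all 12. The part of these differences in the rise of the antiviral genes was not tested.

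IFNγ alone moved fewer of these genes. At 200 pg, 1 of 34 was called higher (Lgals3bp), where 0.114% of all genes were; 5 were higher at an unadjusted p under 0.05, DESeq2 also called 1, and edgeR, DESeq2 and the unadjusted threshold each gave 0 lower (0% of all genes were called lower). At 2000 pg, 14 were higher and 2 lower, where 8.39% and 8.47% of all genes were, with 12 and 2 by DESeq2. Of the 27 genes left without the 7 that passed the filter only through the combinations, 13 were higher and 2 lower. Tor3a was not called by DESeq2 (adjusted p = 0.148) or by edgeR with no filter (adjusted p = 0.116). The 2 lower genes were Samhd1 and Ifit2. Without IFN2000 replicate 2, 12 genes were called, 11 higher and 1 lower; the calls of Isg20, Rtp4, Samhd1 and Tor3a were the ones lost. Median log2 fold changes were 0.12 at 200 pg and 0.43 at 2000 pg, or 0.08 and 0.28 with lower bounds, against 0 over all genes at either dose. All comparisons with Ctrl share the same 2 Ctrl libraries.

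With both agents, most of the genes tested were higher than in Ctrl. Combo200 had 31 of 34 higher and 1 lower (Ifitm2) than Ctrl, where 35.6% and 33.1% of all genes were. In Combo2000, 33 were higher, where 35.7% of all genes were, and edgeR, DESeq2 and the unadjusted threshold each gave 0 lower, where 33.5% of all genes were; DESeq2 called 32 higher. Without the 7 genes that passed the filter only through the combinations, 24 of 27 were higher and 1 lower in Combo200, and 26 higher and 0 lower in Combo2000, with median log2 fold changes of 1.42 and 1.80. The gene not called was Ifitm2. Median log2 fold changes against Ctrl were 1.72 and 2.18, or 1.57 and 2.06 with lower bounds, against 0.02 over all genes in both.

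**Figure D1:**
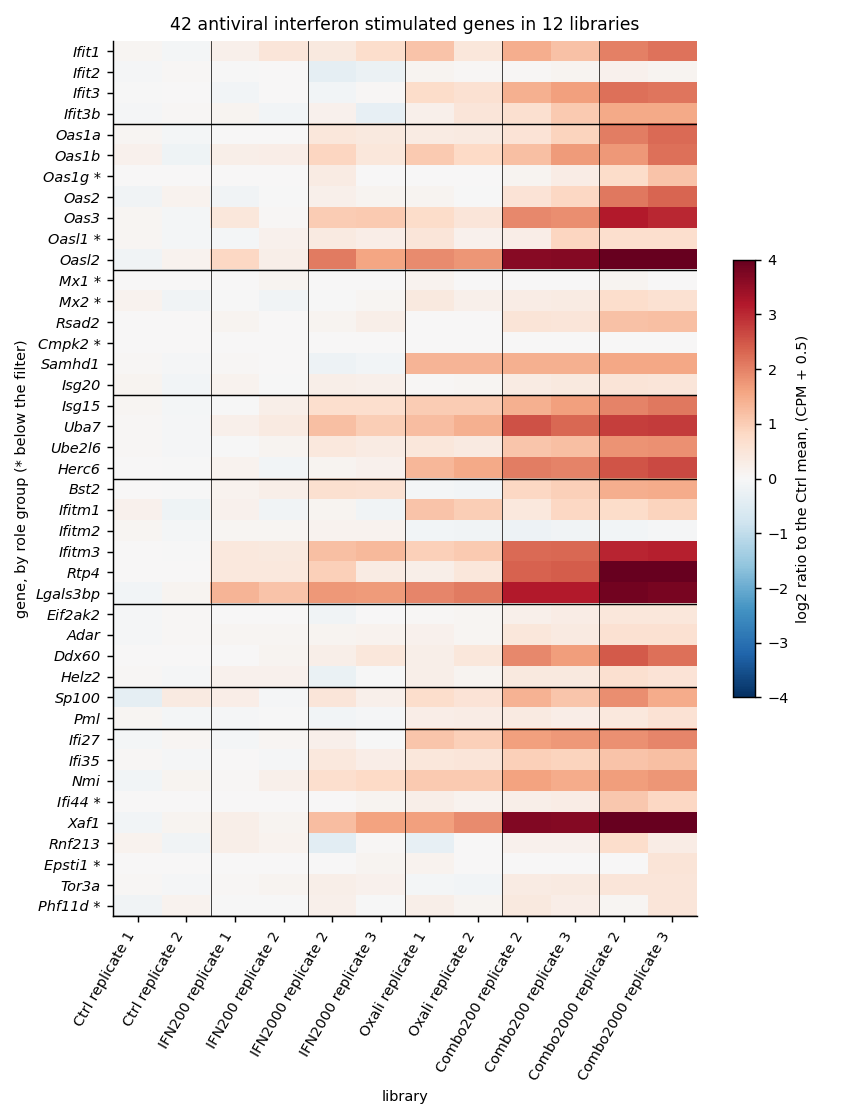
The 42 genes (rows, grouped by role) in the 12 libraries (columns), as the log2 ratio of CPM plus 0.5 to the Ctrl mean, with colours limited to 4 either way and an asterisk for the 8 genes below the filter. Colour deepens from Oxali to Combo200 to Combo2000 in most genes, while the IFN200 columns stay close to Ctrl.

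In the counts by role that follow, the shares over all genes stay those given above: 34.8% higher and 32.8% lower in Oxali, 8.39% and 8.47% in IFN2000, and 35.7% and 33.5% in Combo2000. A role group holds 2 to 6 genes tested, too few to read a share from. The counts for Combo2000 include the 7 genes that passed the filter only through the combinations, and the values of these 7 in the combinations are descriptions.

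The IFIT proteins bind viral RNA that lacks the marks of host messenger RNA and block its translation. Of the 4 genes, which lie side by side on chromosome 19 (34550694 to 34650009, GRCm38), 2 were higher in Oxali, 0 were higher and 1 was lower in IFN2000, and 4 were higher in Combo2000. At an unadjusted p under 0.05, 1 was higher in IFN2000. Ifit3 stood at 0.556 and 0.557 CPM in Ctrl, 0.477 and 0.574 with IFN200, 0.471 and 0.58 with IFN2000, 1.24 and 1.1 with Oxali, 2.36 and 2.82 with Combo200 and 4.33 and 4.14 with Combo2000. Every library with Oxali lay above every library without it. Its log2 fold change was 1.07 ± 0.32 (SE) with Oxali (adjusted p = 0.00641), −0.09 ± 0.38 with IFN2000 (adjusted p = 0.925) and 2.92 ± 0.25 with Combo2000 (adjusted p = 2.36e-09).

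Ifit1 was far rarer, with 2 and 1 counts in Ctrl, 4 and 7 with IFN200, 6 and 10 with IFN2000, 17 and 6 with Oxali, 25 and 21 with Combo200 and 50 and 49 with Combo2000. The ratio of its summed counts to Ctrl was 6.77 in Oxali (95% counting interval 2.05 to 35.2, adjusted p = 0.00341) and 24.8 in Combo2000 (8.24 to 122). Ifit1 passed the filter only through the combinations, so its ratio in Combo2000 is a description. In IFN2000 the ratio was 4.39 (1.26 to 23.5) and the test did not call it (adjusted p = 0.0863). Without Oxali replicate 1 the Oxali call was lost (adjusted p = 0.1).

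Ifit2, which is linked to apoptosis, was the steady gene of the family. It had 52.6 and 55.9 CPM in Ctrl, 53.3 and 55 with IFN200, 42.4 and 45.8 with IFN2000, 57.9 and 56.5 with Oxali, 55.8 and 58 with Combo200 and 60.8 and 57.9 with Combo2000. Only the IFN2000 libraries stood apart, both below every other library, with a log2 fold change of −0.30 ± 0.05 (adjusted p = 0.000782). The rise in Combo2000 was 0.13 ± 0.05 (adjusted p = 0.0293), and that call was lost without Ctrl replicate 1 (adjusted p = 0.283) or Combo2000 replicate 2 (adjusted p = 0.248). Ifit3b had at most 35 counts and resembles Ifit3, so reads may be split between them.

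The OAS enzymes sense double-stranded RNA and make the second messenger that activates RNase L, which degrades RNA. Of 7 genes listed, 5 were tested: 3 were higher in Oxali, 2 in IFN2000 and 5 in Combo2000. Oasl2, a relative that acts in RNA sensing, had 0.334 and 0.507 CPM in Ctrl, 1.13 and 0.574 with IFN200, 3.38 and 2.23 with IFN2000, 2.9 and 2.62 with Oxali, 11 and 11.2 with Combo200 and 27.5 and 25.8 with Combo2000. The groups rose in steps, and IFN2000 and Oxali overlapped. The log2 fold changes were 2.69 ± 0.34 with Oxali (adjusted p = 8.74e-07), 2.72 ± 0.34 with IFN2000 (adjusted p = 2.36e-05), 4.69 ± 0.24 with Combo200 (adjusted p = 1.62e-12) and 5.96 ± 0.2 with Combo2000 (adjusted p = 2.5e-15).

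Oas3, whose promoter is printed above, had 1 and 0 counts in Ctrl, 5 and 1 with IFN200, 13 and 13 with IFN2000, 8 and 5 with Oxali, 34 and 37 with Combo200 and 115 and 87 with Combo2000. Against the single count in Ctrl the ratio was 11.5 in Oxali (95% counting interval 1.73 to 488, adjusted p = 0.00594), 21.4 in IFN2000 (3.52 to 878, adjusted p = 0.00213) and 152 in Combo2000 (26.9 to 6020, adjusted p = 2.92e-10). The Oxali call was lost without Ctrl replicate 2 (adjusted p = 0.0696). Oas1b rose in Oxali as well, by 1.77 ± 0.5 on the log2 scale (adjusted p = 0.00388; 0.0641 without Ctrl replicate 2). Oas1a and Oas2 had at most 3 counts each over both Ctrl libraries and 103 to 104 in Combo2000, with ratios of 26 (8.66 to 128) and 38.7 (10.4 to 324). Both genes passed the filter only through the combinations, so these ratios are descriptions. Neither was called in Oxali (adjusted p = 0.104 and 0.793) or IFN2000 (adjusted p = 0.107 and 0.601).

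Samhd1, which destroys the nucleotides that viruses need to copy DNA, gave the set's highest CPM in all 12 libraries (gene at chr2:157097533-157135265, minus strand, GRCm38). It stood at 438 and 405 CPM in Ctrl, 434 and 424 with IFN200, 366 and 388 with IFN2000, 1070 and 1070 with Oxali, 1120 and 1130 with Combo200 and 1240 and 1240 with Combo2000. The 6 libraries with Oxali did not overlap the 6 without it. It rose by 1.34 ± 0.04 on the log2 scale in Oxali (adjusted p = 3.75e-16) and by 1.56 ± 0.04 in Combo2000 (adjusted p = 2.6e-17). In IFN2000 it fell by 0.16 on the log2 scale (SE 0.04, adjusted p = 0.00736), a call lost without IFN2000 replicate 2 (adjusted p = 0.103) or Ctrl replicate 1 (adjusted p = 0.183).

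Among the other enzymes of this kind, Isg20, an exonuclease that digests single-stranded RNA, had 107 and 92.2 CPM in Ctrl, 110 and 97.6 with IFN200, 116 and 114 with IFN2000, 103 and 104 with Oxali, 126 and 129 with Combo200 and 142 and 140 with Combo2000. The Oxali libraries lay between the Ctrl libraries, and the 4 combination libraries lay above all others. Its log2 fold change was 0.06 ± 0.06 in Oxali (adjusted p = 0.392), 0.21 ± 0.06 in IFN2000 (adjusted p = 0.02; 0.0838 without IFN2000 replicate 2 and 0.283 without Ctrl replicate 2) and 0.50 ± 0.06 in Combo2000 (adjusted p = 2.4e-07). Rsad2, or viperin, which makes a nucleotide that ends viral RNA chains, had no count in Ctrl or Oxali, 1 and 0 with IFN200, 1 and 2 with IFN2000, 5 and 5 with Combo200 and 17 and 15 with Combo2000. In Combo2000 it was at least 4-fold higher than a floor of 3 counts per Ctrl library.

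Isg15 is a ubiquitin-like protein that is attached to other proteins by the enzymes Uba7, Ube2l6 and, in the mouse, Herc6. All 4 genes rose in Oxali, 3 rose in IFN2000 and all 4 rose in Combo2000. Isg15 itself had 8.9 and 8.06 CPM in Ctrl, 8.33 and 10.1 with IFN200, 13.9 and 13.9 with IFN2000, 17.7 and 17.7 with Oxali, 23.5 and 27.6 with Combo200 and 35.2 and 38.2 with Combo2000. After IFN200, which overlapped Ctrl, each group lay above the one before it. The log2 fold changes were 1.07 ± 0.11 with Oxali (adjusted p = 5.25e-08) and 0.72 ± 0.11 with IFN2000 (adjusted p = 0.000297).

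Uba7, the activating enzyme, had 2.61 and 2.43 CPM in Ctrl, 2.99 and 3.36 with IFN200, 6.38 and 5.49 with IFN2000, 6.59 and 7.54 with Oxali, 17.2 and 14.3 with Combo200 and 19.9 and 20.3 with Combo2000. No group overlapped another. It rose by 1.48 ± 0.17 on the log2 scale in Oxali (adjusted p = 1.72e-07) and by 1.24 ± 0.17 in IFN2000 (adjusted p = 8.25e-05). It shares 1003 bases with Gm20661 on the same strand, so some of its reads may have been lost or split.

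The conjugating enzyme, Ube2l6, had 18.6 and 17.2 CPM in Ctrl, 17.7 and 19.4 with IFN200, 23.9 and 22.4 with IFN2000, 24.8 and 23.2 with Oxali, 38.8 and 41.4 with Combo200 and 63.3 and 64.6 with Combo2000. IFN200 overlapped Ctrl, IFN2000 and Oxali overlapped each other above Ctrl, and the combinations stood well above all of these. Its log2 fold change was 0.43 ± 0.07 in Oxali (adjusted p = 4.45e-05), 0.37 ± 0.07 in IFN2000 (adjusted p = 0.00205) and 1.84 ± 0.06 in Combo2000 (adjusted p = 3.11e-15).

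Herc6, the ligase, followed Oxali. It had 7.23 and 6.99 CPM in Ctrl, 7.9 and 6.54 with IFN200, 7.62 and 8.03 with IFN2000, 18.5 and 21.2 with Oxali, 31.1 and 29.8 with Combo200 and 43.1 and 46.8 with Combo2000. IFN200 overlapped Ctrl, and both Oxali libraries lay above every library without the drug. It rose by 1.48 ± 0.11 on the log2 scale in Oxali (adjusted p = 2.02e-10), against 0.14 ± 0.12 in IFN2000 (adjusted p = 0.504). It shares 45031 bases with Gm45193 on the same strand.

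**Figure D2:**
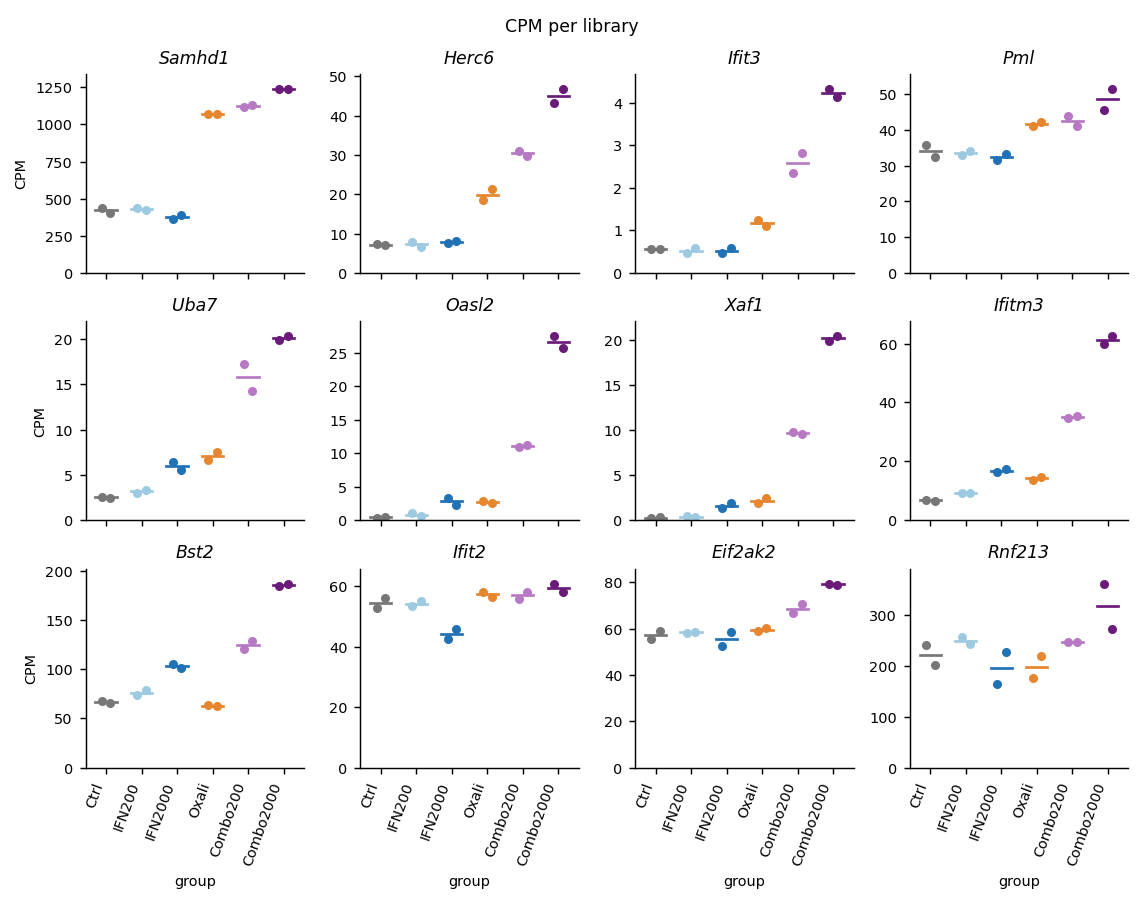
CPM of 12 antiviral genes in each library (points) with the mean of the 2 libraries of each group (lines), on an axis of its own for each gene. Samhd1 and Herc6 step up wherever Oxali is present, Bst2 steps up with IFNγ at 2000 pg and in the combinations, and Ifit2 and Rnf213 vary little or overlap between groups.

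Of the 6 membrane and secreted proteins, 4 were higher in Oxali, 4 in IFN2000 and 5 in Combo2000. Bst2, or tetherin, holds budding virus at the cell surface. It had 67.9 and 65.5 CPM in Ctrl, 73.4 and 78.7 with IFN200, 105 and 101 with IFN2000, 63.5 and 62.1 with Oxali, 120 and 129 with Combo200 and 184 and 187 with Combo2000. The Oxali libraries were the 2 lowest of the 12, yet both combinations lay above IFN2000. The log2 fold changes were −0.09 ± 0.05 in Oxali (adjusted p = 0.145), 0.63 ± 0.05 in IFN2000 (adjusted p = 3e-08), 0.90 ± 0.05 in Combo200 (adjusted p = 2.31e-12) and 1.47 ± 0.05 in Combo2000 (adjusted p = 1.03e-15).

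The IFITM proteins block the fusion of virus with cell membranes, and their 3 genes, which resemble each other, lie on chromosome 7 (140954837 to 141010770). Ifitm3 had 6.95 and 6.69 CPM in Ctrl, 9.2 and 9.19 with IFN200, 16.4 and 17.3 with IFN2000, 13.8 and 14.6 with Oxali, 34.8 and 35.4 with Combo200 and 59.8 and 62.5 with Combo2000. No group overlapped another. It rose by 1.05 ± 0.09 on the log2 scale in Oxali (adjusted p = 3.96e-09) and by 1.31 ± 0.09 in IFN2000 (adjusted p = 3.51e-09). The 0.43 ± 0.1 in IFN200 was not called (adjusted p = 0.153).

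Ifitm2 moved little. It had 43.6 and 39.9 CPM in Ctrl, 43.9 and 44.1 with IFN200, 46.2 and 46.4 with IFN2000, 38.5 and 38.1 with Oxali, 36.5 and 37.9 with Combo200 and 39 and 40.4 with Combo2000. In Combo200 it fell by 0.16 on the log2 scale (SE 0.05, adjusted p = 0.00956), a call lost without Ctrl replicate 1 (adjusted p = 0.11) or Combo200 replicate 2 (adjusted p = 0.0791). With the correction for length and GC content the change in Combo200 was −0.06 and was not called (adjusted p = 0.307). Ifitm2 shares 1101 bases with Gm45717 on the same strand. Ifitm1 went from 1.28 and 0.912 CPM in Ctrl to 2.99 and 2.62 in Oxali (log2 fold change 1.36 ± 0.27, adjusted p = 0.000156), and its levels in the combinations, 1.61 to 2.41 CPM, were below those in Oxali, though that difference was not called (adjusted p = 0.414 and 0.564).

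Lgals3bp, a secreted binder of galectins, was the gene called at IFNγ 200 pg. It had 2.11 and 2.53 CPM in Ctrl, 6.64 and 5.7 with IFN200, 8.87 and 8.57 with IFN2000, 10.4 and 11.5 with Oxali, 24.9 and 24.7 with Combo200 and 40.5 and 38.2 with Combo2000. The 6 groups did not overlap and rose in that order. The log2 fold change was 1.40 ± 0.15 in IFN200 (adjusted p = 0.000159), 1.90 ± 0.14 in IFN2000 (adjusted p = 1.94e-08) and 2.23 ± 0.14 in Oxali (adjusted p = 2.58e-11). Rtp4, a chaperone of membrane receptors, had 0 and 0 counts in Ctrl, 4 and 4 with IFN200, 11 and 3 with IFN2000, 2 and 4 with Oxali, 47 and 56 with Combo200 and 267 and 210 with Combo2000. Against a floor of 3 counts per Ctrl library it was at least 13.2-fold higher in Combo200 and at least 59.4-fold higher in Combo2000. The single treatments stayed near the floor. Their calls (adjusted p = 0.0207 in Oxali and 0.00898 in IFN2000) were lost without either Ctrl library (0.0652 to 0.0854), without Oxali replicate 2 (0.0949) or without IFN2000 replicate 2 (0.129). Rtp4 shares 39791 bases with Gm45338 on the same strand.

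Genes that act on double-stranded RNA moved mostly in the combinations: 2 of 4 were higher in Oxali, 0 in IFN2000 (also 0 lower, and 2 higher at an unadjusted p under 0.05) and 4 in Combo2000. Eif2ak2, or PKR, shuts off translation when it binds double-stranded RNA. It had 55.7 and 59.2 CPM in Ctrl, 58.2 and 58.6 with IFN200, 52.4 and 58.6 with IFN2000, 58.8 and 60.2 with Oxali, 66.7 and 70.6 with Combo200 and 79.5 and 78.9 with Combo2000. The 4 combination libraries lay above the other 8. Its log2 fold change was 0.05 ± 0.05 with Oxali (adjusted p = 0.437), −0.05 ± 0.05 with IFN2000 (adjusted p = 0.562) and 0.46 ± 0.05 with Combo2000 (adjusted p = 1.33e-07).

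Adar, which edits adenosine to inosine in double-stranded RNA, had 48 and 50.4 CPM in Ctrl, 52.1 and 52.1 with IFN200, 52.7 and 53.9 with IFN2000, 55.4 and 51.7 with Oxali, 67.4 and 63.8 with Combo200 and 74.9 and 75.7 with Combo2000. The single treatments overlapped each other within a few CPM of Ctrl. The Oxali call was marginal: 0.12 ± 0.05 (adjusted p = 0.0391), and 0.01 with a correction for length and GC content (adjusted p = 0.905), 0.259 as the adjusted p without Ctrl replicate 1 and 0.329 without Oxali replicate 1. In Combo2000 it rose by 0.61 ± 0.05 on the log2 scale (adjusted p = 6.9e-10). It overlaps Chrnb2 on the opposite strand by 7252 bases.

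Ddx60, a helicase linked to RNA sensing, had 0 and 0 counts in Ctrl, 0 and 1 with IFN200, 2 and 4 with IFN2000, 2 and 4 with Oxali, 32 and 28 with Combo200 and 60 and 42 with Combo2000. It was at least 7.77-fold higher in Combo200 and at least 12.6-fold higher in Combo2000 than a floor of 3 counts per Ctrl library. The Oxali call (adjusted p = 0.0182) was lost without either Ctrl library (0.0683 and 0.0788) or Oxali replicate 2 (0.0867). Helz2, a helicase that coactivates nuclear receptors, was higher in Combo2000 by 0.63 ± 0.12 on the log2 scale (adjusted p = 7.44e-05) and not called in Oxali (0.19 ± 0.13, adjusted p = 0.192).

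Pml and Sp100 build nuclear bodies that silence incoming viral genomes, and 1 of the 2 was higher in Oxali, 0 in IFN2000 (0 lower, and 0 in either direction at an unadjusted p under 0.05) and 2 in Combo2000. Pml had 35.9 and 32.4 CPM in Ctrl, 32.9 and 34 with IFN200, 31.6 and 33.3 with IFN2000, 41.2 and 42.2 with Oxali, 43.8 and 41.1 with Combo200 and 45.6 and 51.5 with Combo2000. All 6 libraries with Oxali lay above the 6 without. It rose by 0.29 ± 0.07 on the log2 scale in Oxali (adjusted p = 0.00078) and by 0.51 ± 0.06 in Combo2000 (adjusted p = 8.15e-07). Sp100 had 0.334 and 0.861 CPM in Ctrl and 3.33 and 2.46 in Combo2000, a log2 fold change of 2.25 ± 0.33 (adjusted p = 4.65e-06).

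Of the 9 other genes, 6 were tested: 4 were higher in Oxali, 4 in IFN2000 and 6 in Combo2000. Xaf1, which binds the apoptosis inhibitor XIAP, had 0.223 and 0.355 CPM in Ctrl, 0.434 and 0.353 with IFN200, 1.33 and 1.92 with IFN2000, 1.93 and 2.43 with Oxali, 9.81 and 9.51 with Combo200 and 19.9 and 20.4 with Combo2000. IFN200 touched the Ctrl range and every other group was above it. The log2 fold changes were 2.88 ± 0.34 in Oxali (adjusted p = 2.94e-07), 2.45 ± 0.36 in IFN2000 (adjusted p = 0.000134) and 6.08 ± 0.2 in Combo2000 (adjusted p = 1.48e-15). Ifi27, a mitochondrial protein, had 11.7 and 12.9 CPM in Ctrl, 11.7 and 12.9 with IFN200, 14.3 and 12.2 with IFN2000, 26.9 and 24.1 with Oxali, 39 and 41.9 with Combo200 and 44.5 and 48.6 with Combo2000. It was another gene that followed the drug, with 1.05 ± 0.1 in Oxali (adjusted p = 7.24e-09) and 0.10 ± 0.11 in IFN2000 (adjusted p = 0.57).

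Nmi and Ifi35 bind each other. Nmi went from 4.62 and 5.57 CPM in Ctrl to 11 and 10.9 in Oxali and 8.31 and 9.24 in IFN2000, and Ifi35 from 25 and 23.5 to 33.1 and 33.8 and to 32.5 and 29.5. Both were called in both treatments, Nmi at 1.09 ± 0.12 (adjusted p = 1.22e-07) and 0.78 ± 0.12 (adjusted p = 0.000312), Ifi35 at 0.47 ± 0.06 (adjusted p = 2.45e-06) and 0.36 ± 0.06 (adjusted p = 0.000861).

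Rnf213, a ubiquitin ligase that can tag bacterial surfaces, is encoded by the longest transcript of the set (16716 bases). It had 241 and 202 CPM in Ctrl, 258 and 243 with IFN200, 164 and 227 with IFN2000, 177 and 221 with Oxali, 248 and 248 with Combo200 and 363 and 273 with Combo2000. The replicates of IFN2000 and of Combo2000 were far apart, and Ctrl, IFN2000 and Oxali overlapped. The call in Combo2000, 0.52 ± 0.13 (adjusted p = 0.00111), was lost without Combo2000 replicate 2 (adjusted p = 0.0817).

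To set the drug and IFNγ side by side, Oxali was tested directly against IFN2000, a comparison chosen after the data had been seen. Of the 34 genes, 11 were higher in Oxali and 5 lower, where 37.1% and 33.9% of all genes were, so neither share was above the background; DESeq2 called 9 and 5. The higher genes were Samhd1 (log2 difference 1.51), Ifitm1 (1.39), Herc6 (1.34), Ifit3 (1.15), Ifi27 (0.95), Ifit2 (0.38), Pml (0.36), Isg15 (0.35), Lgals3bp (0.33), Helz2 (0.33) and Nmi (0.32). The lower ones were Bst2 (−0.72), Tor3a (−0.29), Ifitm2 (−0.27), Ifitm3 (−0.25) and Isg20 (−0.15). Calls of the smaller differences changed with the setting: Helz2, Nmi and Isg20 were lost without IFN2000 replicate 2 (adjusted p = 0.278, 0.111 and 0.0674), Helz2 and Isg20 also without Oxali replicate 1 (0.175 and 0.127), and Isg20 and Lgals3bp without Oxali replicate 2 (0.0641 and 0.0792). With a correction for length and GC content, Ifitm2 (−0.06), Ifitm3 (−0.04) and Isg20 (−0.03) were not called. For Oasl2, Uba7, Ube2l6, Xaf1, Ifi35 and Adar the direct difference was not called.

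**Figure D3:**
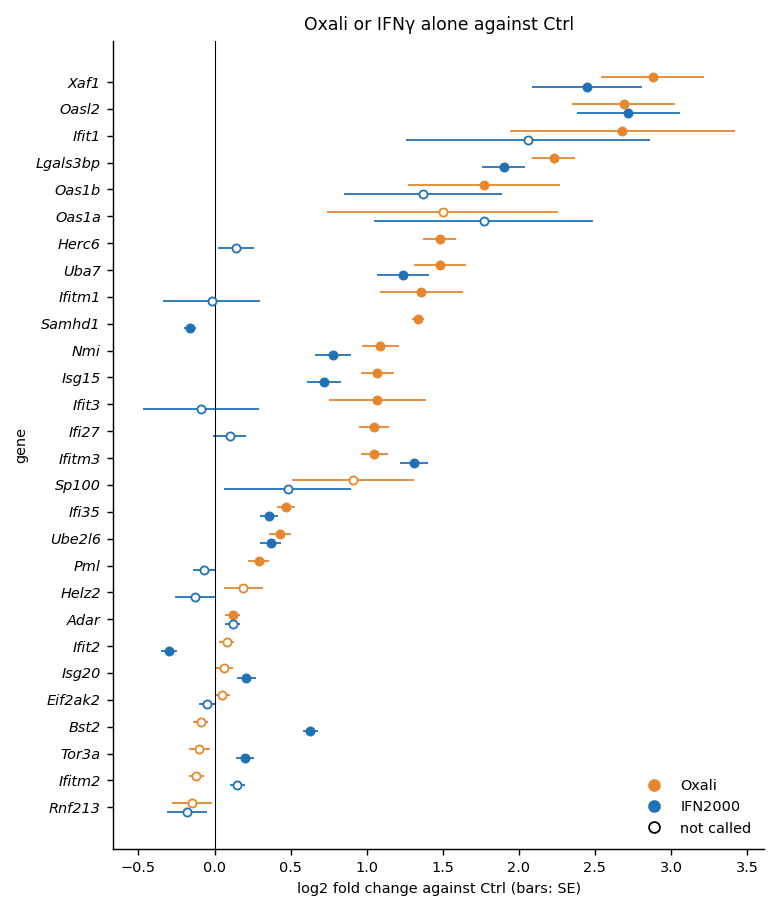
Log2 fold change against Ctrl (points, with bars of 1 SE) of the 28 antiviral genes with counts in every Ctrl, Oxali and IFN2000 library, in Oxali and in IFN2000, with open points for changes that were not called. Samhd1, Herc6, Ifi27 and Ifit3 are far from 0 in Oxali and near 0 in IFN2000, and Bst2 shows the reverse.

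Adding IFNγ to Oxali raised many of these genes further. Combo200 had 20 of 34 higher than Oxali, where 1.58% of all genes were; edgeR and DESeq2 called 0 lower, where 0.25% of all genes were lower, with 1 lower at an unadjusted p under 0.05, and DESeq2 called 18 higher. Combo2000 had 30 higher than Oxali, where 3.37% of all genes were, with 0 lower by edgeR, by DESeq2 and at the unadjusted threshold, where 0.987% of all genes were lower, and 27 higher by DESeq2. Without the 7 genes that passed the filter only through the combinations, 18 and 23 of 27 were higher. The median log2 differences were 0.75 and 1.36, against 0.01 and 0 over all genes. Over the 27 genes they were 0.53 and 0.86. The 7 genes left out there, Rtp4 among them, are kept in the counts by role and the values below, which are descriptions. By role, Combo2000 exceeded Oxali for 3 of 4 IFIT genes, 5 of 5 OAS genes, 3 of 3 enzymes of nucleotides and RNA, 4 of 4 genes of the Isg15 system, 4 of 6 membrane and secreted proteins, 4 of 4 double-stranded RNA genes, 1 of 2 nuclear body genes and 6 of 6 others. Samhd1 gained 0.21 ± 0.04 on the log2 scale over Oxali (adjusted p = 0.00111), whereas Bst2 gained 1.56 ± 0.05 (adjusted p = 1.8e-15), Oasl2 3.27 ± 0.13 (adjusted p = 3.05e-13), Xaf1 3.20 ± 0.13 (adjusted p = 2.07e-13) and Rtp4 6.02 ± 0.31 (adjusted p = 2.58e-11). Ifit2 (0.05 ± 0.05, adjusted p = 0.695), Ifitm1 and Ifitm2 (0.05 ± 0.05, adjusted p = 0.726) were among the 4 not called, with Pml (0.22 ± 0.06, adjusted p = 0.0502).

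The effect of Oxali on top of IFNγ has a much higher background. The counts over 34 hold the 7 genes that passed the filter only through the combinations. Without these 7, Combo200 had 23 of 27 higher and 1 lower than IFN200. Combo2000 had 26 of 27 higher and 1 lower than IFN2000. Combo200 had 30 higher and 1 lower than IFN200, where 36.5% and 33.5% of all genes were, and Combo2000 had 33 higher and 1 lower than IFN2000, where 38.5% and 33.8% were. Ifitm2 was the lower gene in Combo2000, at −0.22 ± 0.05 (adjusted p = 0.000528). With the correction for length and GC content it was −0.03 and was not called (adjusted p = 0.562). Between the IFNγ doses without the drug, 11 were higher and 3 lower in IFN2000 than in IFN200, where 11.3% and 11% of all genes were. Without IFN2000 replicate 2 the calls of Oas3 (log2 difference 2.1) and Rnf213 (−0.14) were lost. The Rnf213 call was kept in 7 of 20 alternatives. It was lost by DESeq2 (adjusted p = 0.247) and by edgeR with the correction for length and GC content (−0.05, adjusted p = 0.69). With the drug, 16 were higher in Combo2000 than in Combo200, where 1.21% of all genes were. DESeq2 called 13 higher. The edgeR call, DESeq2 and the unadjusted threshold gave 0 lower, where 0.167% of all genes were. Without the 7 genes that passed the filter only through the combinations, 13 of 27 were higher by edgeR. Oas2, Rtp4 and Oas1a are among these 7, so their values below are descriptions. The largest differences were those of Oas2 (2.39 ± 0.33, adjusted p = 0.000143; 0.0594 without Combo200 replicate 2), Rtp4 (2.17 ± 0.17, adjusted p = 8.71e-08) and Oas1a (2.13 ± 0.29, adjusted p = 9.76e-05), and that of Samhd1 was not called (0.14 ± 0.04, adjusted p = 0.0824).

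The interaction asks whether the log2 change with IFNγ was larger with Oxali than without it, a departure from changes that add on the log scale. At 200 pg, 5 of 34 genes had a positive interaction, where 0.562% of all genes had one; 15 were positive at an unadjusted p under 0.05, and edgeR, DESeq2 and the unadjusted threshold gave 0 negative, where 0.137% of all genes had one. At 2000 pg, 13 had a positive interaction, where 2.12% of all genes had one; 18 were positive at the unadjusted threshold, 9 by DESeq2, and 0 were negative by any of the 3, where 0.6% of all genes were. Over all genes, 78% of the calls at 2000 pg were positive (280 of them against 79 negative), and 59% with upper-quartile scaling (216 and 150); at 200 pg the shares were 80.4% and 70.4%. The counts for the antiviral genes were 5 and 13 under both scalings. The interaction was positive at both doses for Bst2 (0.80 ± 0.07, adjusted p = 7.53e-07, and 0.93 ± 0.07, adjusted p = 5.81e-08), Ifitm3, Ube2l6, Ifi27 and Ifi35. Bst2 was lowest of the 12 libraries in Oxali alone and highest in the combinations. Leaving out Ctrl replicate 1 left 3 positive interactions at 200 pg (Ifi27 and Ifi35 were lost, adjusted p = 0.0821 and 0.129), and leaving out Ctrl replicate 2 left 7 at 2000 pg. For Samhd1 at 2000 pg the interaction was 0.37 ± 0.05 (adjusted p = 0.000354), with a small fall in IFNγ alone and a small rise over Oxali.

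**Figure D4:**
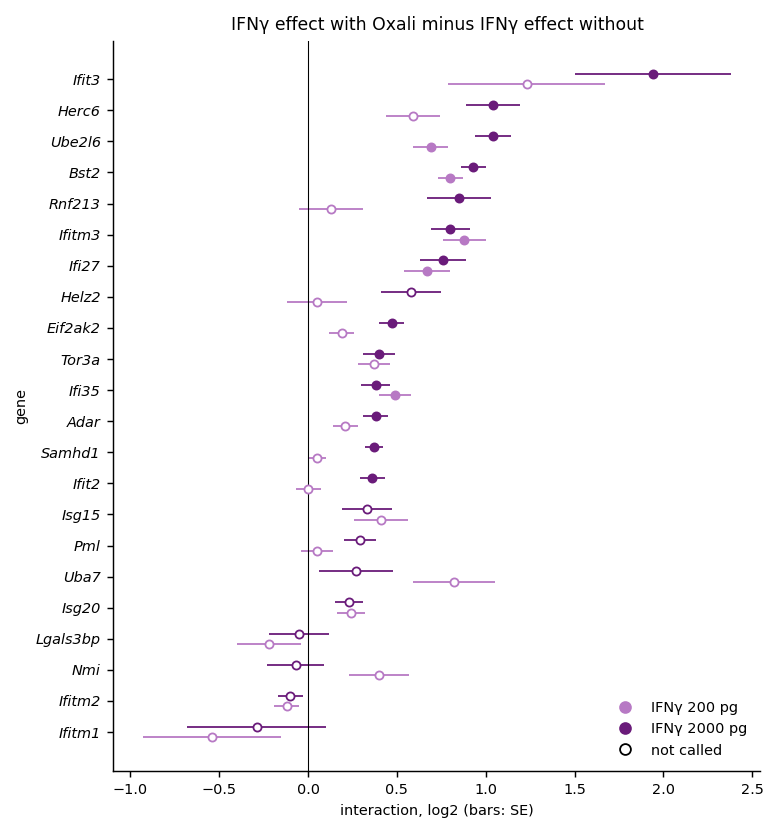
Interaction of Oxali and IFNγ (log2, with bars of 1 SE) at 200 pg and at 2000 pg for the 22 antiviral genes with at least 10 counts in every library, with open points where it was not called. Every called value is above 0, and Bst2, Ube2l6 and Ifitm3 are called at both doses.

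The ligands that usually drive these genes were at or near 0. Of 21 interferon genes looked up, 16 had no count in any library, Ifnb1 among them, and none passed the filter. A count of 0 in each library allows up to 3 counts there. Ifna13 had 0 to 4 counts, highest in Combo2000 (replicate 2: 3, replicate 3: 4). Ctrl replicate 2 and Oxali replicate 1 held 2 each, Combo200 replicate 2 held 1, and every other library 0. Whether Ifna13 differed between treatments was not tested. Ifnz had 0 to 1 counts. Ifnk had 1 count in IFN2000 replicate 3 only, and Ifnl3 had 1 in Combo2000 replicate 3 only. Ligand RNA before 48 h was not measured here. By qRT-PCR, the paper reports Ifna mRNA induction that was weaker after loss of p300 or CBP. For Ifng, IFN2000 replicate 2 held 117 counts, Combo200 replicate 3 held 9, Ctrl replicate 1 held 1 and the other libraries 0, which stands beside the T cell marker counts of the same library given above.

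Genes that carry the interferon signal also changed. Of 40 ligand, receptor, kinase, factor and feedback genes listed, 18 were tested. In Oxali 14 were higher and 3 lower than Ctrl, where 34.8% and 32.8% of all genes were. In IFN2000 6 were higher and 1 lower, where 8.39% and 8.47% of all genes were. In the combinations 14 were higher and 3 lower, where 35.6% and 33.1% of all genes were in Combo200 and 35.7% and 33.5% in Combo2000. In IFN200 edgeR called 0, with 5 higher and 1 lower at an unadjusted p under 0.05. The 3 lower in Oxali were the receptor subunit Ifnar1 (−0.36), the factor Irf3 (−0.31), which drives transcription of Ifnb1, and the feedback inhibitor Socs3 (−0.41). Genes of the ISGF3 complex rose in Oxali, Stat2 by 0.76 ± 0.07 on the log2 scale (adjusted p = 3.32e-09) and Irf9 by 0.78 ± 0.1 (adjusted p = 7.78e-07).

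Stat2 had 24.5 and 24.2 CPM in Ctrl, 24.1 and 26.8 with IFN200, 24.9 and 27.4 with IFN2000, 41.7 and 41 with Oxali, 55.4 and 56.6 with Combo200 and 81.5 and 87.3 with Combo2000, so that the libraries with the drug stood above all others. Irf1 had 38.6 and 37 CPM in Ctrl, 94.6 and 93.9 in IFN2000, 96.3 and 94.1 in Oxali and 432 and 445 in Combo2000, with overlap between the single treatments and a log2 fold change of 1.33 ± 0.05 in Oxali (adjusted p = 1.44e-14). Irf7, the factor that amplifies type I interferon, and Usp18, the protease that removes Isg15 and damps the receptor, rose in Oxali by 2.29 ± 0.24 (adjusted p = 5.08e-08) and 3.43 ± 0.32 (adjusted p = 1.2e-08). In CPM, Irf7 went from 0.835 and 0.709 in Ctrl to 3.73 and 3.82 in Oxali and was 1.41 and 1.12 in IFN2000, and Usp18 from 0.167 and 0.355 to 2.86 and 2.96 and was 0.857 and 0.58.

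**Figure D5:**
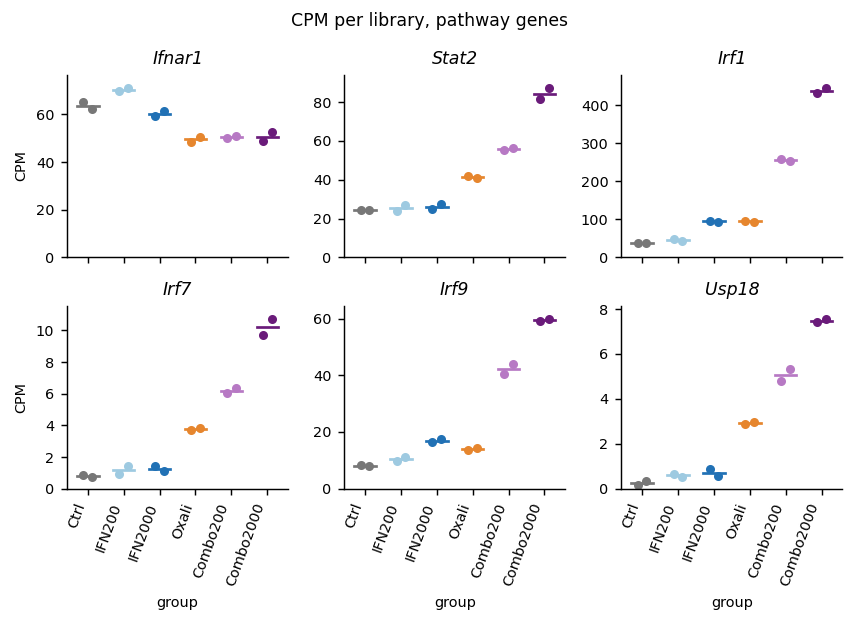
CPM of Ifnar1, Stat2, Irf1, Irf7, Irf9 and Usp18 in each library (points) with group means (lines). Stat2, Irf7 and Usp18 are higher in each Oxali library than in any library of IFNγ alone, whereas Irf9 is higher in IFN2000 than in Oxali and Ifnar1 is lower wherever Oxali is present.

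Guanylate-binding proteins, large GTPases typical of the response to IFNγ, were taken as a contrast. Of 10 tested, 6 were higher with Oxali, 3 with IFN200, 5 with IFN2000, 9 with Combo200 and 10 with Combo2000 than in Ctrl. The shares of all genes called higher in these comparisons were 34.8%, 0.114%, 8.39%, 35.6% and 35.7%. Of the 10, 7 had at most 3 counts in each Ctrl and IFN200 library. In both Oxali libraries 4 had at most 3 counts, and in both IFN2000 libraries 3 did. A gene this low outside the combinations passes the filter only through them, so the counts for the combinations are descriptions. Tested directly, 0 were higher and 5 lower in Oxali than in IFN2000 (0 higher and 5 lower at an unadjusted p under 0.05), where 37.1% and 33.9% of all genes were; whether the 2 gene sets differ in this was not tested.

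The 8 genes that did not pass the filter were Oas1g (0 to 14 counts), Oasl1 (0 to 12), Mx1 (0 to 1), Mx2 (0 to 11), Cmpk2 (0), Ifi44 (0 to 15), Epsti1 (0 to 5) and Phf11d (0 to 6). Mx1 and Mx2 are GTPases that trap viral cores. Oas1g, Mx2 and Ifi44 were each highest in Combo2000, with 9 and 14, 11 and 8, and 15 and 9 counts, against 0 and 0, 2 and 0, and 0 and 0 in Ctrl. Several of these families hold near-identical copies (Oas1a and Oas1g, Ifit3 and Ifit3b, Mx1 and Mx2), so their values are uncertain where reads fit both copies.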

How the data were processed

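RNA from 12 libraries of Myc-CaP cells (poly(A) RNA, stranded kit) was sequenced. The values deposited by the authors are raw counts of reads for each gene symbol, made per the study's methods by STAR alignment to GRCm38 and featureCounts on GENCODE models; the submitters' processing notes name STAR 2.7.3a and RSEM 1.3.0. Whether counting used strand, and how multimapping reads were treated, is not given in the sources used here, so overlapping genes and near-identical copies may share or lose reads. Of 55216 rows, 28300 had no count in any library. Groups came from the sample titles. All columns were used.

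Counts were scaled by TMM, filtered with filterByExpr (minimum count 10, minimum total count 15) and tested with edgeR 4.0.16 (quasi-likelihood) in R 4.3.3, in one model of all 12 libraries that held 6 group means and nothing else. The 14 contrasts included 2 interactions, (Combo minus Oxali) minus (IFNγ minus Ctrl). P-values were adjusted by Benjamini-Hochberg over all 13177 genes tested. SEs were obtained by dividing the log2 fold change by the root of its F statistic. The smallest two-sided p of an exact permutation test of 2 against 2 is 0.333, so each call draws on the spread pooled over genes and groups. Lower bounds were computed against 3 counts per Ctrl library, and ratios of genes with 1 to 3 counts in Ctrl carry exact 95% intervals, both for counting error only. FPKM used summed exon length. Libraries of a group were not copies: chi-square per degree of freedom between them was 1.71 to 9.15. The test was checked on simulated counts.

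The 42 genes, the lists of ligands, pathway genes, guanylate-binding proteins and cell type markers, and the comparison of Oxali with IFN2000 were chosen with earlier results of these data known. Values in every library are given, by role, for the gene with the highest mean CPM and for those with the largest called rise in Oxali and in IFN2000 against Ctrl, for each gene called lower than Ctrl, and for the 3 largest and 3 smallest called interactions at 2000 pg. Those of Isg15, Ifitm3, Lgals3bp, Ifi27 and Rsad2 were added after their values were seen. Promoters were taken for at most 6 genes of that rule with an ISRE core, by largest change in Oxali; that of Eif2ak2, whose core lies after the start, was not printed. Alternatives were DESeq2 1.42.0, DESeq2 size factors, upper-quartile scaling, no filter, a mean of at least 50 counts, the compared groups alone, a correction for length and GC content, a replicate block, and each library left out. Promoters came from RefSeq (GRCm38.p6). Values of 1 pathway gene and 2 marker genes are not reported here. Counts without the 7 genes that passed the filter only through the combinations were added after the data were seen.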

Additional observations from a re-analysis of the deposited data

Results flagged for a closer look

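The difference between the effect of IFNγ with Oxali and without it, tested as an interaction, passed the threshold for the genes below. Values are log2 differences with SE, and adjusted p from edgeR over all 13177 genes. At 200 pg it was 0.88 for Ifitm3 (SE 0.12, adjusted p = 0.000354), 0.80 for Bst2 (SE 0.07, adjusted p = 7.53e-07), 0.69 for Ube2l6 (SE 0.1, adjusted p = 0.000686), 0.67 for Ifi27 (SE 0.13, adjusted p = 0.0162) and 0.49 for Ifi35 (SE 0.09, adjusted p = 0.00729).

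At 2000 pg the largest value was that of Ifit3, a low-count gene, at 1.94 (SE 0.44, adjusted p = 0.0216). Ube2l6 and Herc6 followed at 1.04 each (SE 0.1, adjusted p = 1.62e-06, and SE 0.15, adjusted p = 0.000294), then Bst2 at 0.93 (SE 0.07, adjusted p = 5.81e-08), Rnf213 at 0.85 (SE 0.18, adjusted p = 0.0125), Ifitm3 at 0.80 (SE 0.11, adjusted p = 0.000289) and Ifi27 at 0.76 (SE 0.13, adjusted p = 0.00201). Smaller values were 0.47 for Eif2ak2 (SE 0.07, adjusted p = 0.000979), 0.40 for Tor3a (SE 0.09, adjusted p = 0.0164), 0.38 for Ifi35 (SE 0.08, adjusted p = 0.0193), 0.38 for Adar (SE 0.07, adjusted p = 0.00345), 0.37 for Samhd1 (SE 0.05, adjusted p = 0.000354) and 0.36 for Ifit2 (SE 0.07, adjusted p = 0.0104).

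Without Ctrl replicate 2, the calls of Adar (adjusted p = 0.059), Ifi27 (0.0589), Ifi35 (0.0633), Ifit2 (0.0971), Ifit3 (0.108) and Tor3a (0.0533) at 2000 pg were lost, and without Ctrl replicate 1 those of Ifi35 (0.213), Ifit3 (0.148), Rnf213 (0.194) and Tor3a (0.148). Without IFN2000 replicate 2, the library with T cell reads, Ifit3 (0.0914) and Ifit2 (0.0596) were lost. The calls of Rnf213 (0.111 and 0.126) were also lost without Oxali replicate 1 or Combo2000 replicate 2, and that of Ifi27 at 200 pg without IFN200 replicate 1 (0.195), Oxali replicate 2 (0.124), Combo200 replicate 3 (0.156) or Ctrl replicate 2 (0.3). Leaving out Oxali replicate 2 or Combo2000 replicate 2 lost Ifit2 (0.0617 and 0.0815), Ifit3 (0.0669 and 0.0666) and Tor3a (0.0648 and 0.0632). Ifi35 was lost at 2000 pg without either Oxali library (0.0823 and 0.0569) or Combo2000 replicate 3 (0.063), and at 200 pg without IFN200 replicate 2 (0.0522) or Ctrl replicate 1 (0.129). The calls of Bst2, Ube2l6, Ifitm3, Herc6, Eif2ak2 and Samhd1 were kept in each run that left out 1 library.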

How the results depend on the processing

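Of 282 calls of single genes, 226 kept their direction and their side of the threshold under each alternative that gave a value (18 to 20 for each call). The one reversal was Helz2 in Oxali against IFN2000, at −0.06 with the correction for length and GC content (adjusted p = 0.679). Counts of called antiviral genes stayed within 1.5 times, apart from these. The count in IFN200 against Ctrl went from 1 to 2 with no filter and with the length and GC correction. The count in Combo200 against Ctrl went from 32 to 21 with a mean of at least 50 counts, where fewer genes were tested. The interaction at 200 pg went from 5 to 8 with no filter and gave 3 to 5 with a library left out, and at 2000 pg from 13 to 7 to 14. Causes were not tested where none is given. Replicate numbers did not pair the libraries: over 21 pairs with the same number the correlation of deviations was −0.05 to 0.05. The fit with the replicate block lost 15 calls and gave 21 calls in Oxali and 15 in IFN2000 against Ctrl. Depth limits the 8 untested genes and those with under 10 counts in Ctrl.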
